A study of Rattus norvegicus with 12 samples.

Results

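The genes described here are markers of microglia, the resident macrophages of the brain, and of other myeloid cells, measured in cultures labelled as astrocytes. The set was a fixed list of 36 gene symbols, chosen with earlier results of these data known. Of these, 34 had a row of their own on the arrays, among 18166 genes measured. Cd33 had no row, and Fcgr2b was found only on a row shared with several genes, so neither has a value here. The cells were primary astrocytes from the cerebral cortex of 1-day-old Sprague-Dawley rats, kept in serum-free medium before use to deplete microglia and meningeal cells. The 4 groups of 3 arrays each were compared. The group siCon received control siRNA and, per its labels, neither interferon-γ nor the compound. The group siCon_IFNg received control siRNA and interferon-γ for 3 h. The group siCon_IFNg_GW had the same siRNA and cytokine plus a compound that the labels name only as GW. The group siSHP_IFNg_GW received siRNA against SHP, the nuclear receptor encoded by Nr0b2, with interferon-γ and GW. All 12 samples were thus transfected with siRNA, and the series has no GW group without interferon-γ and no SHP siRNA group without GW. The labels do not say that arrays of a group came from separate cultures or animals, so each p-value reflects array-to-array spread that could be purely technical.

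Microglia survey the brain through G protein-coupled receptors such as CX3CR1 and P2RY12, depend on signals through the receptor CSF1R and on the transcription factor PU.1, and clear debris through phagocytic receptors that signal by way of the adaptors TYROBP and FCER1G. They are the main source of complement C1q in the brain and are rich in lysosomal enzymes and in the NADPH oxidase that makes superoxide. Mixed glial cultures from newborn rat cortex commonly hold some microglia on top of the astrocyte layer. In a bulk array a lower value of such a gene can come from fewer cells of the type or from less RNA per cell, and these cannot be told apart.

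The deposited values are log2 expression, so a difference of 1 is a doubling, and levels of different genes are not comparable with each other. As a background level the 95th percentile of the means of 1343 olfactory and vomeronasal receptor genes was used, which was 5.34. All 34 markers had a mean above it, and 33 were above it on all 12 arrays. Mpeg1 was the exception, on 10 of 12. Of a second list of other microglia and myeloid genes, 38 of 39 were above background, as were 12 of 12 astrocyte, 12 of 13 oligodendrocyte lineage, 9 of 15 neuron and 8 of 12 meningeal and vascular markers, and 2 of 12 lymphocyte, neutrophil and erythroid markers. Arrays that share a title number deviated from their group means together, with correlations from 0.43 to 0.77. A shift of the arrays numbered 1 alone would also give correlations within the other numbers. The fit with the title number as a block is given beside the fit without it. Each SE of a difference between groups comes from the fit without a block, also where a p-value with the block stands beside it. The siRNA target Nr0b2 lay between 4.59 and 5.12, under the background on all 12 arrays, so these values do not check the knockdown; siSHP_IFNg_GW differed from siCon_IFNg_GW by 0.16 ± 0.14 (SE; limma adjusted p = 1).

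The markers were lower in the arrays with GW and interferon-γ than in those with interferon-γ alone. The difference between group means was negative for 30 of 34 (49.2% of all genes), with a median of -0.45, against 0.00 over all genes. In the fit without a block no marker passed an adjusted p under 0.05 (limma, Benjamini-Hochberg over all 18166 genes), where 0.253% of all genes were lower, and 12 were lower at an unadjusted p under 0.05, where 5.05% of all genes were. With the title number as a block 17 markers fell, where 2.91% of all genes did, and 19 fell, where 4.98% did, once the 4 arrays numbered 1 were left out. Of these markers 16 were in both, and the share of all genes in both was not counted. Leaving out only siCon replicate 1 gave 3 lower markers without the block, where 0.352% of all genes were. For 12 markers every GW array lay below every array with interferon-γ alone, which held for 7.24% of all genes. In pairs of arrays with the same number the median over the markers was -0.47, -0.46 and -0.37, and 29 markers were lower in all 3 pairs (85.3%, against 20.8% of all genes). Cx3cr1, Tmem119 and Arl11 were higher in all 3 pairs.

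Against siCon the arrays with GW and interferon-γ had lower group means for all 34 markers, with a median of -0.55, against -0.02 over all genes and 53.4% of all genes negative. Without siCon replicate 1 the median was -0.30 and 6 of the 34 changed sign; 2 did without siCon_IFNg_GW replicate 2, 1 without siCon_IFNg_GW replicate 3, 2 without the arrays numbered 1 and 1 after quantile normalization. Gpr34, Tyrobp and Arl11 fell in the fit without a block, where 0.281% of all genes did. With the block 24 fell, where 3.9% of all genes did, and 15 fell, where 2.35% did, without the arrays numbered 1. All 15 of the latter were among the 24. The arrays of the 2 groups did not overlap, with GW lower, for 13 markers and for 10.1% of all genes. This comparison shares the GW arrays with the one above, and 15 markers fell with the block in both. Such overlaps of calls were not counted over all genes.

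With interferon-γ alone few of them passed, and the sign of their median turned when siCon replicate 1 was left out. Then 18 of the 34 changed sign, and 1 to 10 did without another array of either group. Against siCon the median was -0.11 (all genes -0.03), and 28 of 34 group means were lower, as were 59.9% of all genes. Without siCon replicate 1 the median was 0.14 with 22 positive, and without the arrays numbered 1 it was -0.03 with 18 negative. Leaving out another array of either group gave medians from -0.30 (without siCon replicate 3) to -0.02 (without siCon_IFNg replicate 3). Gpr34 and Arl11 fell, both with and without the block, where 0.341% and 0.0385% of all genes fell. The numbers of called markers ranged from 0 to 2 as single arrays were left out. Without the arrays numbered 1 Coro1a fell as well, making 3, where 1.66% of all genes fell. The medians of the pairs were -0.41, -0.11 and 0.06 for numbers 1, 2 and 3. No marker passed a test of this difference between number 1 and the other numbers (limma adjusted p under 0.05), where 2.43% of all genes did.

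With SHP siRNA no marker passed against the GW arrays with control siRNA. The median difference was 0.10 and 25 of 34 were positive, while 57.3% of all genes were negative. This direction changed with single arrays, as the median was -0.04 with 20 negative without siSHP_IFNg_GW replicate 1 and 0.01 with 18 positive without siCon_IFNg_GW replicate 2. It was highest, 0.19, without siCon_IFNg_GW replicate 1 and 0.18 without siSHP_IFNg_GW replicate 3. None passed in either direction with or without the block, where 0% of all genes passed, and 1 marker, Arl11, was lower at an unadjusted p under 0.05, where 1.28% of all genes were. Without the arrays numbered 1 Ncf1 fell (-0.59; limma adjusted p = 0.035), where 0.116% of all genes did. Against interferon-γ alone siSHP_IFNg_GW had a median of -0.35 with 32 of 34 negative (54.1% of all genes), and of -0.23 with 27 negative without siCon_IFNg replicate 1. None of these fell without the block, where 0.0606% of all genes did, and the 4 that fell with it, where 1.13% did, were C1qc, Ly86, Mpeg1 and Aif1. When the arrays numbered 1 were left out 8 fell, where 2.21% of all genes did. Against siCon the median was -0.44 with 33 of 34 negative (57.6% of all genes), and it was -0.25 with 24 negative without siCon replicate 1. In this comparison 2 markers fell without the block, where 0.539% of all genes did, 20 with it, where 5.34% did, and 17 without the arrays numbered 1, where 5.04% did. Of the 24 that fell with the block in siCon_IFNg_GW against siCon, 18 also fell in siSHP_IFNg_GW against siCon. These 2 comparisons share the siCon arrays, and the share of all genes that fell in both was not counted.

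**Figure D1:**
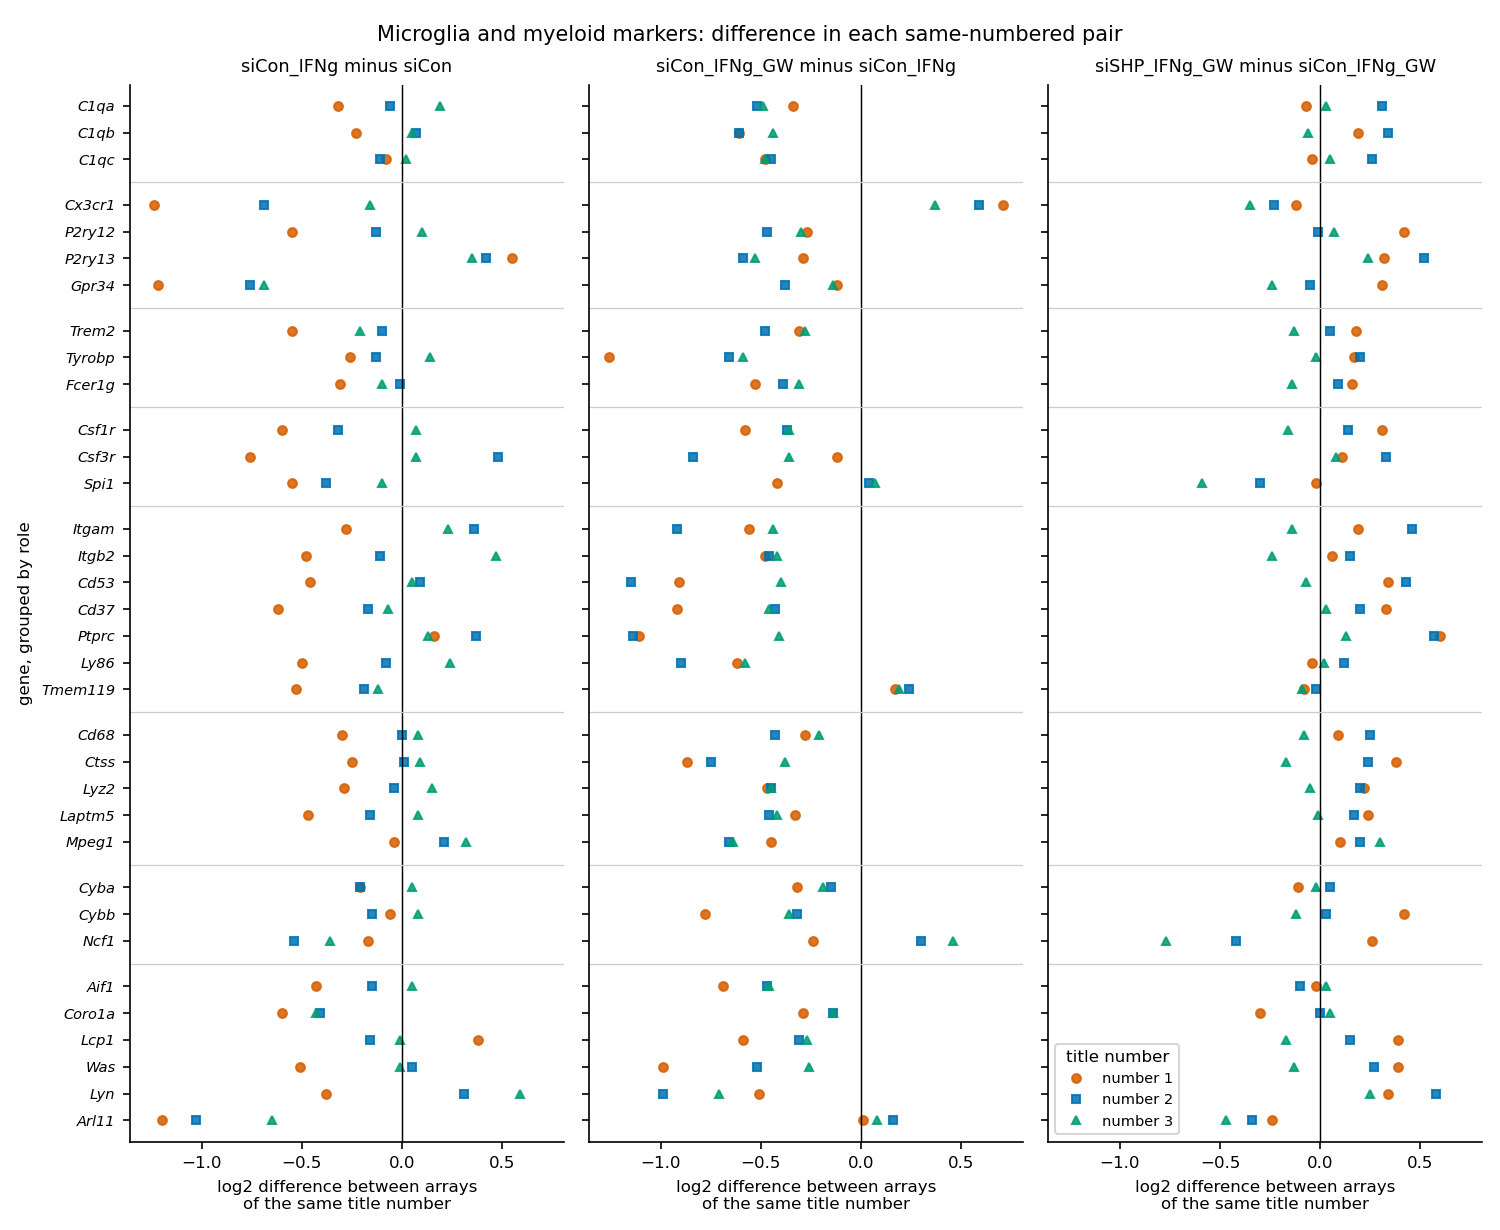
Log2 difference between arrays of the same title number for each of the 34 markers, grouped by role from complement C1q at the top to actin and signalling at the bottom, in 3 comparisons; each symbol is 1 pair and colours give the number. In the middle panel 29 markers lie left of 0 in all 3 pairs, while in the left panel Gpr34 and Arl11 stand out, and in the right panel most symbols lie within 0.5 of 0.

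Promoter sequence was available for 22 of the 34 markers in RefSeq (GRCr8). GAGGAA, the core that PU.1 binds, occurred within 150 bases before the start, on either strand, in 12 of the 22 (54.5%) and in 14.5% of all 33469 promoters; among other microglia and myeloid genes it was in 8 of 29 (27.6%). The composite element of ETS and IRF factors was in 2 of 22 (9.09%; 1.46% of all promoters), namely Cd68 and Cybb, and overlapped GAGGAA in both. A STAT motif, TTCNNNGAA, was in 2 (9.09%; 4.41% of all promoters), namely C1qa and Itgam. A match is a run of letters and not a shown binding site. Of the 17 markers that fell with GW with the block 11 had a sequence and 7 of those had GAGGAA, as did 5 of the other 11 markers with a sequence. In 3 of the 7 the window lay outside the gene model: C1qb, Cybb and Laptm5. They are shown because they combine the lower values described below with this core. Each runs 5′ to 3′ along the gene's strand and ends at the base before the start, with the core, here read as TTCCTC on the opposite strand, in capitals.
C1qb, chr5:154407828-154407977, minus strand: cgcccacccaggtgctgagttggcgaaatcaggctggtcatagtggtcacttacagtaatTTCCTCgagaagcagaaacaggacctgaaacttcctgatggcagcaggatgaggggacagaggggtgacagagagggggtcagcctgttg
Cybb, chrX:16065066-16065215, minus strand: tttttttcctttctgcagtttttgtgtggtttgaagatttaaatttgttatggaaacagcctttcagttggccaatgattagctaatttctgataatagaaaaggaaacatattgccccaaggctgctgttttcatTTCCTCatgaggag
Laptm5, chr5:148371730-148371879, plus strand: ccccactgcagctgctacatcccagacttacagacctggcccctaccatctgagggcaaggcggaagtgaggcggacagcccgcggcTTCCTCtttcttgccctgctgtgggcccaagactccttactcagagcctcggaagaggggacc
The core began 90, 14 and 63 bases before the start in C1qb, Cybb and Laptm5.

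C1qa, C1qb and C1qc encode the chains of C1q, which starts the classical complement pathway and tags synapses and debris for removal; the 3 genes neighbour each other in GRCr8. C1qb read 10.14, 10.11 and 10.07 in siCon, 9.91, 10.19 and 10.12 in siCon_IFNg, 9.30, 9.58 and 9.68 in siCon_IFNg_GW, and 9.49, 9.92 and 9.62 in siSHP_IFNg_GW. All 6 GW arrays were below all 6 arrays without GW except for siSHP_IFNg_GW replicate 2, which at 9.92 was just above siCon_IFNg replicate 1 at 9.91. C1qb differed by -0.56 ± 0.13 (SE) between siCon_IFNg_GW and siCon_IFNg (limma adjusted p = 0.11; 0.015 with the block). C1qa read 10.31, 9.87 and 9.71 in siCon, 9.98, 9.80 and 9.90 in siCon_IFNg, 9.64, 9.29 and 9.42 in siCon_IFNg_GW, and 9.57, 9.60 and 9.44 in siSHP_IFNg_GW. Its GW arrays with control siRNA did not overlap with either group without GW, and the difference from siCon_IFNg was -0.45 ± 0.15 (SE; limma adjusted p = 0.24; 0.042 with the block). C1qc read 9.44, 8.98 and 8.93 in siCon, 9.36, 8.87 and 8.95 in siCon_IFNg, 8.88, 8.42 and 8.48 in siCon_IFNg_GW, and 8.83, 8.68 and 8.53 in siSHP_IFNg_GW. Number 1 was the highest array of C1qc in every group, and within pairs the difference with GW was nearly the same, -0.48, -0.45 and -0.48 (limma adjusted p = 0.33; 0.012 with the block). The 3 chains thus fell with GW with the block, and with interferon-γ alone none passed (differences of -0.06, -0.04 and -0.06).

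Among the receptors that mark resting microglia, Gpr34, a receptor for lysophosphatidylserine, was lowered by interferon-γ itself. Its arrays read 7.97, 7.79 and 7.62 in siCon, 6.75, 7.04 and 6.93 in siCon_IFNg, 6.63, 6.65 and 6.79 in siCon_IFNg_GW, and 6.95, 6.61 and 6.55 in siSHP_IFNg_GW. The siCon arrays were the 3 highest, with no overlap with any other group, and the other 9 arrays lay between 6.55 and 7.04. Interferon-γ lowered Gpr34 1.85-fold (-0.89 ± 0.13, SE; limma adjusted p = 0.038; 0.013 with the block). This call was lost after centring on array medians and when any 1 of 10 arrays was left out, all but siCon_IFNg_GW replicate 1 and siSHP_IFNg_GW replicate 1 (adjusted p up to 0.22). In contrast siCon_IFNg_GW against siCon, -1.10 ± 0.13 (limma adjusted p = 0.0057), kept its call under every alternative run, with 0.037 the highest adjusted p. Adding GW to interferon-γ gave -0.21 ± 0.13 (limma adjusted p = 0.63). P2ry12, the ADP receptor of process movement, read 7.36, 7.23 and 6.78 in siCon, 6.81, 7.10 and 6.88 in siCon_IFNg, 6.54, 6.63 and 6.58 in siCon_IFNg_GW, and 6.95, 6.62 and 6.65 in siSHP_IFNg_GW. Its siCon_IFNg_GW arrays were below all arrays of the groups without GW, and against siCon it fell with the block (-0.54 ± 0.15, SE; limma adjusted p = 0.16; 0.042 with the block). P2ry13, its neighbour in GRCr8 and also an ADP receptor, read 7.28, 6.60 and 6.66 in siCon, 7.83, 7.02 and 7.01 in siCon_IFNg, 7.54, 6.43 and 6.48 in siCon_IFNg_GW, and 7.86, 6.95 and 6.72 in siSHP_IFNg_GW. Number 1 was the highest array of each group. Within pairs the differences were 0.55, 0.42 and 0.35 with interferon-γ (limma adjusted p = 0.11 with the block), and P2ry13 fell with GW (-0.29, -0.59 and -0.53; limma adjusted p = 0.032 with the block, 0.76 without).

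Cx3cr1, the fractalkine receptor, had the opposite direction under GW. Its arrays read 8.96, 8.0 and 7.79 in siCon, 7.72, 7.31 and 7.63 in siCon_IFNg, 8.43, 7.90 and 8.0 in siCon_IFNg_GW, and 8.31, 7.68 and 7.65 in siSHP_IFNg_GW. Interferon-γ arrays were all below those of siCon (-0.70 ± 0.29, SE; limma adjusted p = 0.84; 0.091 with the block), and all arrays of siCon_IFNg_GW were above those of siCon_IFNg. The second difference was 0.56 ± 0.29 (limma adjusted p = 0.53; 0.065 with the block). It passed as higher without the arrays numbered 1 (limma adjusted p = 0.043), a direction in which 6.47% of all genes passed. Neither the fit without a block nor that with the replicate block called Cx3cr1 in any comparison between groups. A fit with 1 block term for the arrays numbered 1 called 1 marker higher in siCon_IFNg_GW against siCon_IFNg. There 830 of 18166 genes were called higher.

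TREM2 is a lipid-sensing receptor that signals through TYROBP, and FCER1G serves Fc receptors in the same way. Tyrobp read 10.03, 9.64 and 9.45 in siCon, 9.77, 9.51 and 9.60 in siCon_IFNg, 8.51, 8.85 and 9.0 in siCon_IFNg_GW, and 8.67, 9.05 and 8.98 in siSHP_IFNg_GW. The 6 arrays with GW lay between 8.51 and 9.05 and the 6 without it between 9.45 and 10.03. Tyrobp fell 1.89-fold in siCon_IFNg_GW against siCon (-0.92 ± 0.17, SE; limma adjusted p = 0.038; 0.016 with the block), a call lost after centring on array medians and when any 1 of 10 arrays was left out, all but siCon_IFNg replicate 1 and siSHP_IFNg_GW replicate 1 (adjusted p up to 0.14). Against siCon_IFNg the difference was -0.84 ± 0.17 (limma adjusted p = 0.058; 0.024 with the block), and SHP siRNA added 0.11 ± 0.17 (adjusted p = 1). Trem2 read 8.86, 9.34 and 9.35 in siCon, 8.31, 9.24 and 9.14 in siCon_IFNg, 8.01, 8.75 and 8.86 in siCon_IFNg_GW, and 8.19, 8.80 and 8.73 in siSHP_IFNg_GW. Number 1 was the lowest Trem2 array in each group, opposite to most markers, and in each pair the level was lower with interferon-γ than in siCon and lower again with GW. Trem2 fell against siCon in siCon_IFNg_GW (-0.64 ± 0.29, SE; limma adjusted p = 0.45; 0.0061 with the block). Fcer1g read 11.73, 10.68 and 10.66 in siCon, 11.42, 10.67 and 10.55 in siCon_IFNg, 10.89, 10.28 and 10.24 in siCon_IFNg_GW, and 11.05, 10.37 and 10.10 in siSHP_IFNg_GW. Number 1 stood 0.63 to 1.06 above the mean of the other arrays of its group, and with the block Fcer1g fell with GW against siCon_IFNg (-0.41 ± 0.35, SE; limma adjusted p = 0.78; 0.039 with the block).

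**Figure D2:**
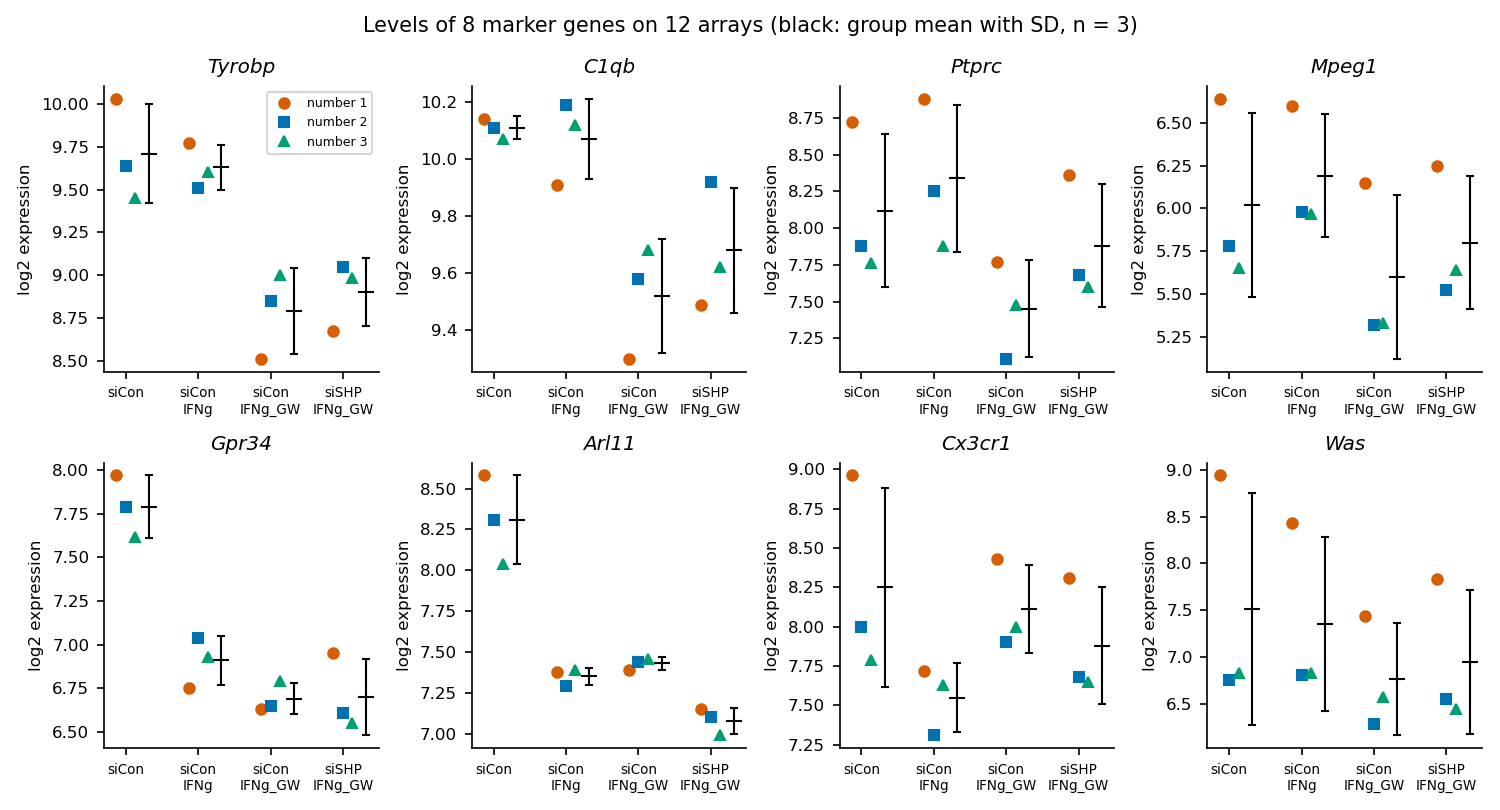
Log2 expression of 8 markers on all 12 arrays by group; symbols and colours give the title number and black marks the group mean with SD (n = 3). Tyrobp and C1qb are lower in both groups with GW, Ptprc and Mpeg1 are lower within pairs while number 1 is highest in each group, Gpr34 and Arl11 are highest in siCon, Cx3cr1 is lowest with interferon-γ alone, and Was varies mainly with the title number.

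Csf1r, the receptor through which microglia survive and grow, read 9.47, 9.46 and 9.25 in siCon, 8.87, 9.14 and 9.32 in siCon_IFNg, 8.29, 8.77 and 8.97 in siCon_IFNg_GW, and 8.61, 8.92 and 8.81 in siSHP_IFNg_GW. All arrays of both GW groups were below all those of siCon. It fell with the block against siCon in siCon_IFNg_GW (-0.72 ± 0.18, SE; limma adjusted p = 0.11; 0.016 with the block) and in siSHP_IFNg_GW (-0.62 ± 0.18; 0.13; 0.025 with the block), but not against siCon_IFNg (-0.44 ± 0.18; 0.096 with the block). Spi1, which encodes PU.1, read 8.70, 7.38 and 7.2 in siCon, 8.15, 7.0 and 7.10 in siCon_IFNg, 7.73, 7.04 and 7.17 in siCon_IFNg_GW, and 7.71, 6.75 and 6.58 in siSHP_IFNg_GW. Its number 1 array was the highest of each group, and its GW difference from siCon_IFNg was -0.10 ± 0.45 (limma adjusted p = 0.97; 0.73 with the block). With the block Spi1 fell only in siSHP_IFNg_GW against siCon (-0.75 ± 0.45, SE; limma adjusted p = 0.56; 0.013 with the block). Csf3r, the receptor for granulocyte colony-stimulating factor, ranged from 5.77 to 7.31 and passed in no comparison between groups with or without the block. Once the arrays numbered 1 were left out it fell in siCon_IFNg_GW against siCon_IFNg, where 4.98% of all genes did. The lowest Csf3r value, 5.77, lay close above the background of 5.34.

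Of the 7 surface proteins measured, 4 fell with GW against siCon_IFNg with the block (2.91% of all genes did), and the median difference was -0.64. Ptprc, the leukocyte phosphatase CD45, read 8.72, 7.88 and 7.76 in siCon, 8.88, 8.25 and 7.88 in siCon_IFNg, 7.77, 7.11 and 7.48 in siCon_IFNg_GW, and 8.36, 7.68 and 7.60 in siSHP_IFNg_GW. Every siCon_IFNg_GW array was below every siCon_IFNg array, by -0.89 ± 0.32 (SE) on average (1.85-fold; limma adjusted p = 0.29; 0.0058 with the block). With SHP siRNA Ptprc was higher in each pair (0.60, 0.57 and 0.13), which did not pass (limma adjusted p = 1; 0.72 with the block). Cd53, a tetraspanin of leukocytes, read 10.76, 10.14 and 9.83 in siCon, 10.30, 10.24 and 9.88 in siCon_IFNg, 9.38, 9.08 and 9.47 in siCon_IFNg_GW, and 9.73, 9.51 and 9.40 in siSHP_IFNg_GW. The 6 arrays with GW were below the 6 without it, and Cd53 fell with GW with the block (-0.82 ± 0.22, SE; limma adjusted p = 0.13; 0.02 with the block). Cd37, another tetraspanin, read 9.40, 7.90 and 7.84 in siCon, 8.78, 7.73 and 7.78 in siCon_IFNg, 7.85, 7.30 and 7.31 in siCon_IFNg_GW, and 8.18, 7.50 and 7.34 in siSHP_IFNg_GW. Its siCon array numbered 1 stood 1.53 above the mean of the other siCon arrays, and it fell with the block only against siCon (-0.89 ± 0.43, SE, for siCon_IFNg_GW; limma adjusted p = 0.47; 0.015 with the block).

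Itgam and Itgb2 form the complement receptor CR3. Itgam read 8.45, 7.38 and 7.40 in siCon, 8.17, 7.73 and 7.62 in siCon_IFNg, 7.61, 6.81 and 7.18 in siCon_IFNg_GW, and 7.80, 7.27 and 7.04 in siSHP_IFNg_GW. GW arrays with control siRNA were all below those with interferon-γ alone, and the difference of -0.64 ± 0.32 (SE) passed with the block (limma adjusted p = 0.026, and 0.5 without). Itgb2 ranged from 7.12 to 9.03 and passed in no comparison between groups with or without the block, although its GW differences in pairs were close to each other (-0.48, -0.46 and -0.42). Ly86, the partner of the Toll-like receptor homologue CD180, read 9.72, 8.38 and 7.91 in siCon, 9.22, 8.30 and 8.15 in siCon_IFNg, 8.60, 7.39 and 7.57 in siCon_IFNg_GW, and 8.56, 7.51 and 7.59 in siSHP_IFNg_GW. Its groups overlapped, number 1 was far above the others, and within pairs it was lower with GW (-0.62, -0.90 and -0.58; limma adjusted p = 0.024 with the block, 0.7 without). Tmem119, a marker of resident microglia, ranged from 5.95 to 6.68, close above background, and passed in no comparison between groups.

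Of the 5 genes of lysosomes and lysozyme 4 fell with GW against siCon_IFNg with the block, where 2.91% of all genes did, and all 5 were lower in all 3 pairs, where 20.8% of all genes were. Ctss, the lysosomal protease cathepsin S, read 9.89, 9.27 and 9.06 in siCon, 9.64, 9.28 and 9.16 in siCon_IFNg, 8.77, 8.53 and 8.77 in siCon_IFNg_GW, and 9.15, 8.77 and 8.60 in siSHP_IFNg_GW. Its siCon_IFNg_GW arrays were below all arrays without GW (-0.66 ± 0.22, SE; limma adjusted p = 0.24; 0.017 with the block). Laptm5, a lysosomal membrane protein of blood cells, read 9.72, 9.31 and 9.23 in siCon, 9.25, 9.16 and 9.31 in siCon_IFNg, 8.92, 8.70 and 8.89 in siCon_IFNg_GW, and 9.16, 8.87 and 8.88 in siSHP_IFNg_GW. It did not overlap between siCon_IFNg_GW and siCon_IFNg and fell with the block (-0.40 ± 0.14, SE; limma adjusted p = 0.26; 0.048 with the block). Lyz2, the lysozyme of macrophages, read 11.63, 10.43 and 10.25 in siCon, 11.34, 10.39 and 10.40 in siCon_IFNg, 10.88, 9.94 and 9.95 in siCon_IFNg_GW, and 11.09, 10.14 and 9.90 in siSHP_IFNg_GW. Number 1 was 0.93 to 1.29 above the mean of the other arrays of its group, while the GW differences within pairs were -0.47, -0.45 and -0.45, and Lyz2 fell with the block (limma adjusted p = 0.027; 0.82 without). Whether its probes also read related lysozyme genes was not tested.

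Mpeg1, the pore-forming perforin-2 of macrophages, read 6.64, 5.78 and 5.65 in siCon, 6.60, 5.98 and 5.97 in siCon_IFNg, 6.15, 5.32 and 5.33 in siCon_IFNg_GW, and 6.25, 5.52 and 5.64 in siSHP_IFNg_GW. The 2 values under the background of 5.34 were those of siCon_IFNg_GW numbered 2 and 3. With the block Mpeg1 had a limma adjusted p of 0.006 in siCon_IFNg_GW against siCon_IFNg, and 0.56 without. The difference was -0.58 ± 0.32 (SE without the block). Cd68, a glycoprotein of phagocyte lysosomes, read 10.65, 9.68 and 9.59 in siCon, 10.35, 9.68 and 9.67 in siCon_IFNg, 10.06, 9.25 and 9.45 in siCon_IFNg_GW, and 10.15, 9.51 and 9.37 in siSHP_IFNg_GW. In siCon_IFNg_GW Cd68 fell with the block against siCon (limma adjusted p = 0.047) and not against siCon_IFNg (0.096 with the block). The differences were -0.38 ± 0.33 and -0.31 ± 0.33 (SE without the block).

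Cybb and Cyba form the membrane core of the NADPH oxidase, and Ncf1 encodes its cytosolic subunit p47phox. Cybb read 10.53, 9.80 and 9.66 in siCon, 10.48, 9.65 and 9.74 in siCon_IFNg, 9.70, 9.33 and 9.38 in siCon_IFNg_GW, and 10.11, 9.35 and 9.26 in siSHP_IFNg_GW. The 2 groups overlapped, and the GW differences in pairs were -0.78, -0.32 and -0.36 (limma adjusted p = 0.031 with the block, 0.62 without). Cyba read 9.70, 9.59 and 9.38 in siCon, 9.49, 9.37 and 9.44 in siCon_IFNg, 9.17, 9.23 and 9.24 in siCon_IFNg_GW, and 9.06, 9.28 and 9.23 in siSHP_IFNg_GW. Its 6 arrays with GW were below the 6 without it in a narrow range, and it fell with the block only in siSHP_IFNg_GW against siCon (-0.37 ± 0.10, SE; limma adjusted p = 0.12; 0.047 with the block). Ncf1 ranged from 7.41 to 9.43 and did not follow the others, with GW differences in pairs of -0.24, 0.30 and 0.46.

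Among the genes of actin and signalling, Arl11, a small GTPase of macrophages, was, like Gpr34, highest in siCon. It read 8.58, 8.31 and 8.04 in siCon, 7.38, 7.29 and 7.39 in siCon_IFNg, 7.39, 7.44 and 7.46 in siCon_IFNg_GW, and 7.15, 7.10 and 6.99 in siSHP_IFNg_GW. The siCon arrays were the 3 highest and the siSHP_IFNg_GW arrays the 3 lowest, with no overlap. Arl11 fell 1.95-fold with interferon-γ (-0.96 ± 0.12, SE; limma adjusted p = 0.025; 0.0046 with the block), a call lost after centring on array medians and when any 1 of 5 arrays was left out (siCon replicate 2, siCon_IFNg replicates 2 and 3, siCon_IFNg_GW replicate 2 or siSHP_IFNg_GW replicate 2; adjusted p up to 0.16). GW added 0.08 ± 0.12 (adjusted p = 0.9). SHP siRNA gave -0.35 ± 0.12 against siCon_IFNg_GW, which did not pass (limma adjusted p = 1; 0.76 with the block). In siSHP_IFNg_GW against siCon it was -1.23 ± 0.12, 2.35-fold lower, with an adjusted p of 0.0016 that was at most 0.017 under every alternative run. In siCon_IFNg_GW against siCon it was -0.88 ± 0.12 (limma adjusted p = 0.012), a call lost without siCon replicate 2 or without siCon_IFNg_GW replicate 2 (adjusted p up to 0.071).

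Lyn, a Src family kinase of myeloid and B cells, read 8.95, 8.26 and 8.05 in siCon, 8.57, 8.57 and 8.64 in siCon_IFNg, 8.06, 7.58 and 7.93 in siCon_IFNg_GW, and 8.40, 8.16 and 8.18 in siSHP_IFNg_GW. It fell with GW against siCon_IFNg with the block (-0.74 ± 0.21, SE; limma adjusted p = 0.16; 0.026 with the block), and with SHP siRNA all 3 arrays were above those of siCon_IFNg_GW (0.39 ± 0.21; adjusted p = 1, and 0.91 with the block). Aif1, which encodes the microglial actin-binding protein IBA1, read 9.86, 8.83 and 8.59 in siCon, 9.42, 8.68 and 8.64 in siCon_IFNg, 8.73, 8.22 and 8.19 in siCon_IFNg_GW, and 8.71, 8.12 and 8.22 in siSHP_IFNg_GW. Number 1 was highest in each group, and with the block Aif1 fell with GW (-0.54 ± 0.33, SE; limma adjusted p = 0.61; 0.04 with the block). Coro1a, a coronin of leukocytes, read 8.06, 6.99 and 6.96 in siCon, 7.46, 6.57 and 6.53 in siCon_IFNg, 7.16, 6.44 and 6.39 in siCon_IFNg_GW, and 6.87, 6.44 and 6.44 in siSHP_IFNg_GW. Its differences in pairs were negative with interferon-γ (-0.60, -0.41 and -0.43; limma adjusted p = 0.13 with the block) and it fell with the block against siCon (-0.67 ± 0.34, SE, for siCon_IFNg_GW; 0.012). Was, the Wiskott-Aldrich protein of actin branching, read 8.94, 6.75 and 6.83 in siCon, 8.43, 6.81 and 6.83 in siCon_IFNg, 7.44, 6.28 and 6.57 in siCon_IFNg_GW, and 7.83, 6.55 and 6.44 in siSHP_IFNg_GW. The number 1 arrays were apart from the rest, and Was fell with the block only in siCon_IFNg_GW against siCon (limma adjusted p = 0.048, and 0.77 without). The difference of Was there was -0.75 ± 0.65 (SE without the block). Lcp1, the actin bundler L-plastin, ranged from 9.95 to 10.68 and passed in no comparison between groups with or without the block. Once the arrays numbered 1 were left out it fell in siSHP_IFNg_GW against siCon, where 5.04% of all genes did.

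The second list, of 39 other microglia and myeloid genes, had a median of -0.31 in siCon_IFNg_GW against siCon_IFNg, with 32 negative. Of the 39, 13 were lower with the block and 0 without it, where 2.91% and 0.253% of all genes were. Against siCon its median was -0.40, and Olfml3, an extracellular matrix protein of microglia, and Myo1f, an unconventional myosin, fell without the block, where 0.281% of all genes did (-0.45 ± 0.08 and -0.54 ± 0.11, SE; limma adjusted p = 0.032 and 0.048). The lists of other cells moved less. Their medians in siCon_IFNg_GW against siCon_IFNg were -0.03 for astrocytes, -0.06 for the oligodendrocyte lineage, -0.13 for neurons, -0.05 for meningeal and vascular cells, and 0.04 for lymphocytes, neutrophils and erythroid cells. With the block 1 astrocyte marker of 12 fell, where 2.91% of all genes did, and no marker of the other 4 lists passed. Once the arrays numbered 1 were left out, 4.98% of all genes fell and 6.47% rose. In that setting 2 neuron markers fell, as did 1 marker in each remaining list of other cells. In each list of other cells except the oligodendrocyte lineage 1 marker rose. Of the 39 other myeloid genes 18 fell and 2 rose.

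**Figure D3:**
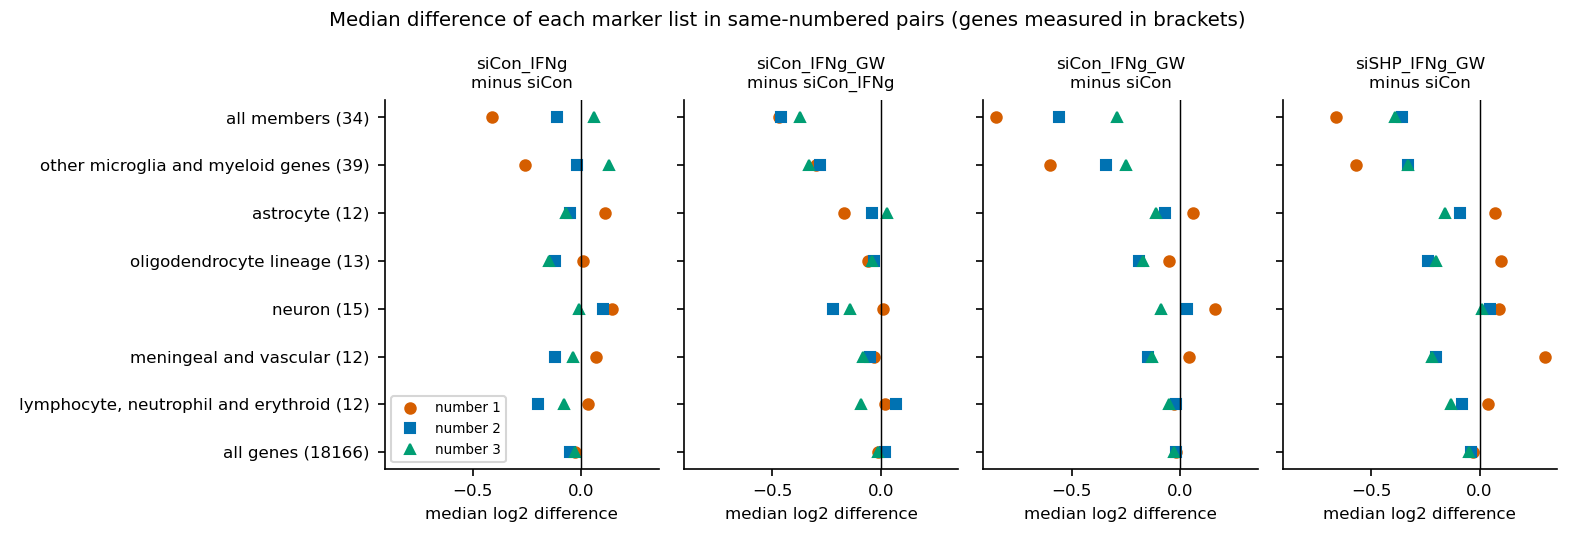
Median log2 difference of the genes of each list between arrays of the same title number, in 4 comparisons; symbols and colours give the number, and the number of genes measured is in brackets. With GW added to interferon-γ the 34 markers have medians of -0.47, -0.46 and -0.37 and the other myeloid genes lie near -0.3, while the other lists lie between -0.22 and 0.07.

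The arrays numbered 1 differed from the rest in most markers. In a fit of group and number, 24 of 34 markers were higher on the arrays numbered 1 than on those numbered 2 and 3 (limma adjusted p under 0.05), where 20.4% of all genes were, and Trem2 alone was lower (-0.68 ± 0.07, SE; adjusted p = 5.5e-05), where 17.2% of all genes were. The median was 0.61, against 0.03 over all genes, and lay between 0.44 (without siCon replicate 1) and 0.67 (without siCon_IFNg replicate 1) when 1 array was left out. Further, 24 markers were higher in all 4 groups (70.6%, against 25.4% of all genes). Was (1.53 ± 0.15, SE), Ncf1 (1.38 ± 0.12), Ly86 (1.17 ± 0.11), Lyz2 (1.06 ± 0.07), Spi1 (1.05 ± 0.11) and Itgb2 (1.02 ± 0.12) were each more than doubled. C1qb, Csf1r, Lcp1 and Tyrobp had negative differences that did not pass (-0.20 ± 0.08, -0.27 ± 0.10, -0.19 ± 0.09 and -0.01 ± 0.13). Among the other myeloid genes 26 were higher and Mrc1 (-1.33 ± 0.12) and Msr1 (-0.64 ± 0.08), the mannose receptor and a scavenger receptor of macrophages, were lower. Meningeal and vascular markers were lower on the same arrays, with a median of -0.80 and 7 of 12 lower, and the collagen gene Col1a1 differed by -2.26 ± 0.13. Astrocyte and oligodendrocyte lineage markers had medians of -0.20 and -0.22. The labels give number 1 no other meaning than a number, and each group has 1 such array, so what it stands for was not tested.

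**Figure D4:**
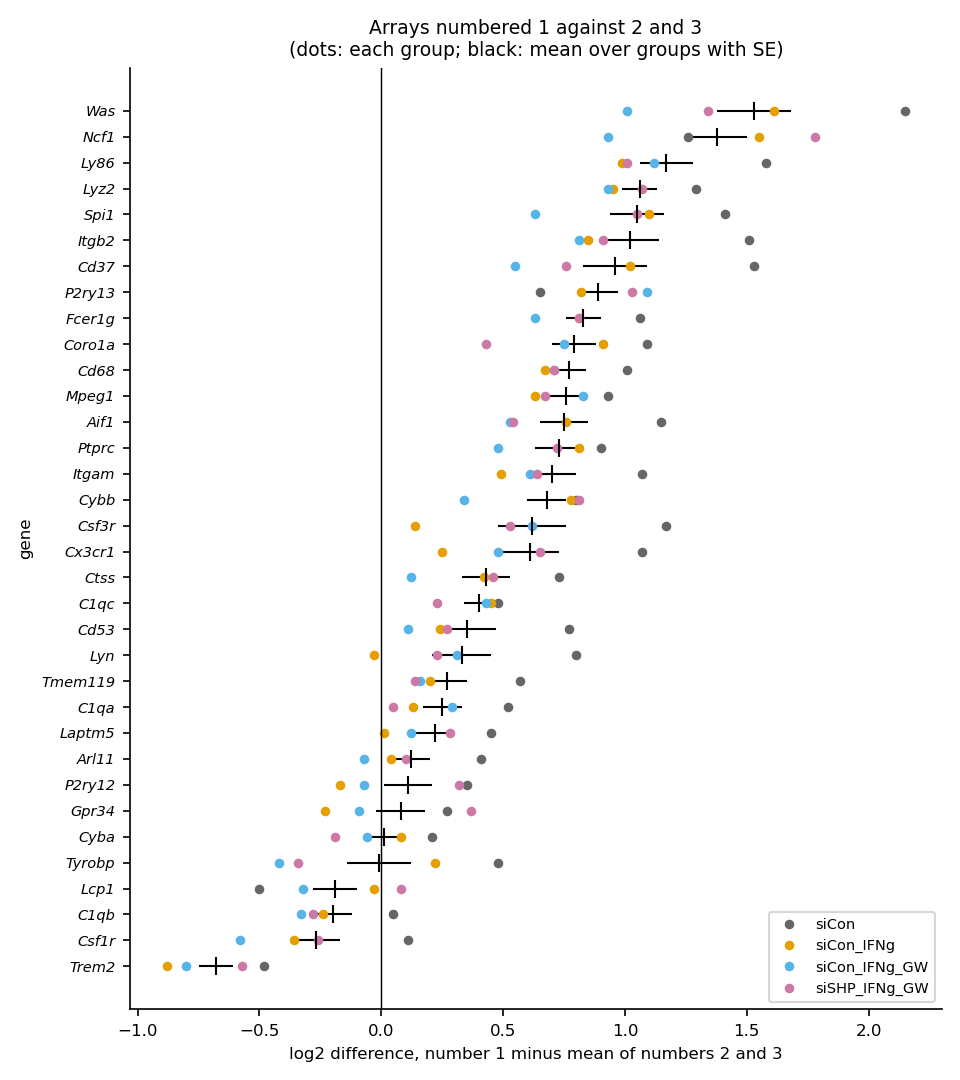
Log2 difference between the array numbered 1 and the mean of those numbered 2 and 3 for each marker; dots are the 4 groups and black ticks the mean over groups with its SE. Was and Ncf1 are at the top, 24 markers are above 0 in all 4 groups, and Trem2 is below 0 in all 4.

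Spread between numbers was large for the genes at the top of that order, so the SE without a block was 0.65 for Was and 0.58 for Ncf1 but 0.12 for Arl11 and 0.13 for Gpr34. The 3 markers that passed without the block in any comparison, Gpr34, Tyrobp and Arl11, had differences between numbers of 0.08, -0.01 and 0.12, none of which passed.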

How the data were processed

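Total RNA of 12 rat astrocyte samples was labelled with biotin and hybridised to expression arrays, per the labels' protocols. The deposited values are log2 expression per probe set row, ranging from 1.01 to 13.43 over 36685 rows with no missing value; base 2 was taken from the range of the values, and how the authors normalized them was not given in the sources used here. Column medians lay between 5.51 and 5.67. Rows paired with 1 gene numbered 18511, those with several 575 and those with none 17599; 18394 matched RefSeq (GRCr8) by gene identifier and no symbol changed. The row with the highest mean stood for each of the 291 genes with several rows, giving 18166 genes.

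Group means of all 12 arrays were fitted without a block (R 4.3.3, limma 3.58.1, lmFit and eBayes on contrasts), and p-values were adjusted by Benjamini-Hochberg over all genes at 0.05. The SE of each difference between groups is from this fit, also beside p-values from the fit with the block. The SE of each difference between title numbers is from the fit of group and number. The fit without a block was tested on simulated data that held no shift between title numbers. The fit with the block was not tested in this way. Title numbers were taken as pairs because same-numbered arrays correlated in their deviations from group means (0.63 to 0.77 for number 1, 0.48 to 0.58 for 2 and 0.43 to 0.55 for 3). Deviations within a group cancel out, so a shift of number 1 alone also makes same-numbered arrays of the other numbers correlate. These values therefore do not show that numbers 2 and 3 are separate pairs, which was not tested. Every measured marker was named, with values per array for those passing in any comparison with or without the block; the others are given by range, except Cx3cr1, given by array and chosen for that after its values were seen. The markers and gene lists were chosen with earlier results of these data known.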

Additional observations from a re-analysis of the deposited data

How the results depend on the processing

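The number of markers called depended on how the title number was handled. In siCon_IFNg_GW against siCon_IFNg it was 0 without a block, 17 with the replicate block and 1 with dim genes filtered out. It was 20 with 1 block term for number 1 and 20 without replicate 1 (19 lower and 1 higher in each). Calls over all 18166 genes rose as well in this comparison. They went from 161 without a block to 1189 with the replicate block, 1558 with the term for number 1 and 2081 without replicate 1. In siCon_IFNg_GW against siCon 3 became 24, 26 and 15 with the replicate block, the term for number 1 and without replicate 1. In siSHP_IFNg_GW against siCon 2 became 20, 20 and 17, and against siCon_IFNg 0 became 4, 6 and 8. In siSHP_IFNg_GW against siCon_IFNg_GW 0 became 1 without replicate 1, and in siCon_IFNg against siCon 2 became 0 after centring on array medians. The replicate block changed no call in the last 2 comparisons. Leaving out 1 array at a time gave 0 to 2 markers in siCon_IFNg against siCon, 0 to 3 in siCon_IFNg_GW against siCon_IFNg (3 without siCon replicate 1), 0 in siSHP_IFNg_GW against siCon_IFNg_GW and against siCon_IFNg, 1 to 3 in siCon_IFNg_GW against siCon (1 without siCon replicate 2 or siCon_IFNg_GW replicate 2), 2 to 3 in siSHP_IFNg_GW against siCon and 22 to 26 between numbers. In siSHP_IFNg_GW against siCon Lyz2 ranged from -0.75 (without siSHP_IFNg_GW replicate 1) to 0.04 (without siCon replicate 1; limma adjusted p = 0.99). Under alternatives 1765 values were compared for 92 results of single genes. Of these values 1535 kept direction and side of the threshold, 58 lost it, 171 gained it and 1 turned. The 92 results do not cover every marker in every comparison. Signs over all 34 markers changed more often, as for 18 in siCon_IFNg against siCon without siCon replicate 1. In siSHP_IFNg_GW against siCon_IFNg_GW 13 changed without siSHP_IFNg_GW replicate 1.

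Over all genes the calls were 22, 161, 0, 157, 55 and 218 in the 6 comparisons (siCon_IFNg, siCon_IFNg_GW against siCon_IFNg, siSHP_IFNg_GW against siCon_IFNg_GW, siCon_IFNg_GW against siCon, siSHP_IFNg_GW against siCon_IFNg and against siCon), with 170, 1189, 0, 1242, 559 and 1570 under the replicate block, 856, 2081, 267, 1028, 1129 and 1937 without replicate 1, and 15, 79, 0, 79, 30 and 109 after centring. With 1 block term for number 1 the calls over all 18166 genes were 232, 1558, 1, 1604, 795 and 1872 in the same order. Centring moved the split of higher and lower genes from 15 and 7 to 12 and 3 in siCon_IFNg against siCon, from 120 and 98 to 75 and 34 in siSHP_IFNg_GW against siCon, and from 3698 and 3126 to 5454 and 2085 between numbers. The number of arrays limits the precision, and values near the background limit what can be said of Mpeg1, Tmem119 and Csf3r.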

Other observations

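Among the other microglia and myeloid genes some regulators went up with interferon-γ. Plek, which encodes pleckstrin, and Runx1, a transcription factor of blood cell development, rose against siCon with the block (1.51 ± 0.31 and 1.08 ± 0.36, SE; limma adjusted p = 0.017 and 0.023; 0.16 and 0.63 without). Cd180, a Toll-like receptor homologue, fell (-0.80 ± 0.40; 0.041 with the block, 0.95 without). Runx1 was 1.94 ± 0.36 above siCon in siSHP_IFNg_GW (limma adjusted p = 0.033). Its group means were 7.45 in siCon, 8.54 in siCon_IFNg, 9.21 in siCon_IFNg_GW and 9.40 in siSHP_IFNg_GW. With the block Runx1 also rose in siCon_IFNg_GW against siCon. Between the 2 groups with GW it did not pass with or without the block.

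Irf8, a transcription factor of myeloid cells that interferon-γ is known to induce, differed between title numbers. With interferon-γ its differences in the pairs numbered 1, 2 and 3 were 1.08, 3.31 and 3.6. When GW was added they were -0.20, -3.18 and -3.15, and with SHP siRNA in place of control siRNA 0.52, 3.41 and 3.5. None of these 3 comparisons passed over all 12 arrays (limma adjusted p = 0.39, 0.24 and 1, and 0.07, 0.05 and 0.6 with the block), and all 3 passed without the arrays numbered 1 (4.8e-06, 4.1e-06 and 7.1e-06).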
